A study of Mus musculus with 4 samples.

Results

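The nuclear genes for subunits of respiratory chain complexes I to V were compared between quadriceps muscle of NF90-NF45 double transgenic (dbTg) mice and wild-type (WT) mice. Members were taken by symbol from probe sets that carried exactly 1 gene symbol, leaving out assembly factors and pseudogenes, and a gene with several probe sets was represented by the brightest. This gave 80 genes of the 22180 named on the array: 33 of complex I, 4 of complex II, 8 of complex III, 17 of complex IV, 17 of complex V, and the gene for cytochrome c, Cycs. A further 8 symbols that fit the naming pattern (Cox6c, Ndufb2, Ndufb4, Ndufb4b, Ndufb4c, Ndufs6, Ndufs6b and Uqcr10) stood only on probe sets shared with other genes and are no members.

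The dbTg group held 2 mice that carry transgenes for both NF90 and NF45, at 16 weeks of age. The WT group held 2 mice of wild-type genotype, 1 of 16 weeks (WT 2) and 1 of 17 to 18 weeks (WT 1). Replicate 1 is the male and replicate 2 the female of each group, with 1 array of total RNA per mouse. No source used here names the strain or the promoter that drives the transgenes. Ilf2, which encodes NF45, read 10.36 and 10.16 in dbTg and 5.03 and 5.04 in WT on the log2 scale, so it was 37.4-fold higher in dbTg. The markers of the labelled tissue were among the brightest genes: Myh4, the fast myosin heavy chain, read 11.15 and 11.04 in dbTg and 11.10 in both WT mice, and skeletal actin Acta1 11.16 and 11.06 in dbTg against 11.02 and 11.05 in WT.

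The respiratory chain sits in the inner mitochondrial membrane and passes electrons from NADH (complex I) and succinate (complex II) through complex III and cytochrome c to oxygen (complex IV). The proton gradient that results drives ATP synthase (complex V). Most subunits are encoded in the nucleus and a few in mitochondrial DNA. Skeletal muscle is rich in these complexes, most of all in its slow and oxidative fibres, and it uses muscle forms of several complex IV subunits (Cox6a2, Cox7a1, Cox8b) where most other tissues use Cox6a1, Cox7a2 and Cox8a.

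No subunit gene passed the test in dbTg muscle. Most subunit genes had small negative differences, and 3 genes (Cox6a1, Cox8a and Ndufv3) stood apart with positive differences of more than 0.7. Leaving out 1 array at a time, these ran from 0.54 to 1.02 for Cox6a1, from 0.44 (without dbTg replicate 2) to 1.03 for Cox8a and from 0.54 to 0.91 for Ndufv3, and Ndufv3 had 0.53 after quantile normalization. Values are the deposited log2 expression values, and a difference is the dbTg mean minus the WT mean. Genes whose mean over the 4 arrays reached 1.48, the 40th percentile of all named genes, were tested with limma, which left 74 of the 80 members among 13308 genes. Of the 74, 0 were called at a Benjamini-Hochberg adjusted p of 0.05 in either direction, while 2.01% of all tested genes were called higher in dbTg and 0.203% lower. The smallest limma adjusted p among the members was 0.116, for Cox6a1. In simulated data 0.4% of genes with a true difference of -0.5 were called, so 0 calls cannot show that no subunit gene changed. At an unadjusted p under 0.05, 3 members were higher in dbTg, where 14.0% of all tested genes were, and 5 were lower, where 4.64% were.

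The differences of the tested members ran from -0.49 to 0.78, with a median of -0.17 and 61 of 74 below 0. Over all tested genes the median was 0.09, with 39.5% below 0. Both dbTg arrays read below both WT arrays for 37 of the 74 members, against 16.3% of all tested genes, and above them for 4, against 33.7%. The members are bright: their median level lay at percentile 97.5 of all named genes. Among the tested genes at or above the 95th percentile, the 1066 that are no members had a median difference of 0.00406 and 49.5% below 0, and the 44 members in that range had a median of -0.18 with 38 below 0. In bulk muscle, fewer cells of a type and less RNA per cell cannot be told apart.

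**Figure D1:**
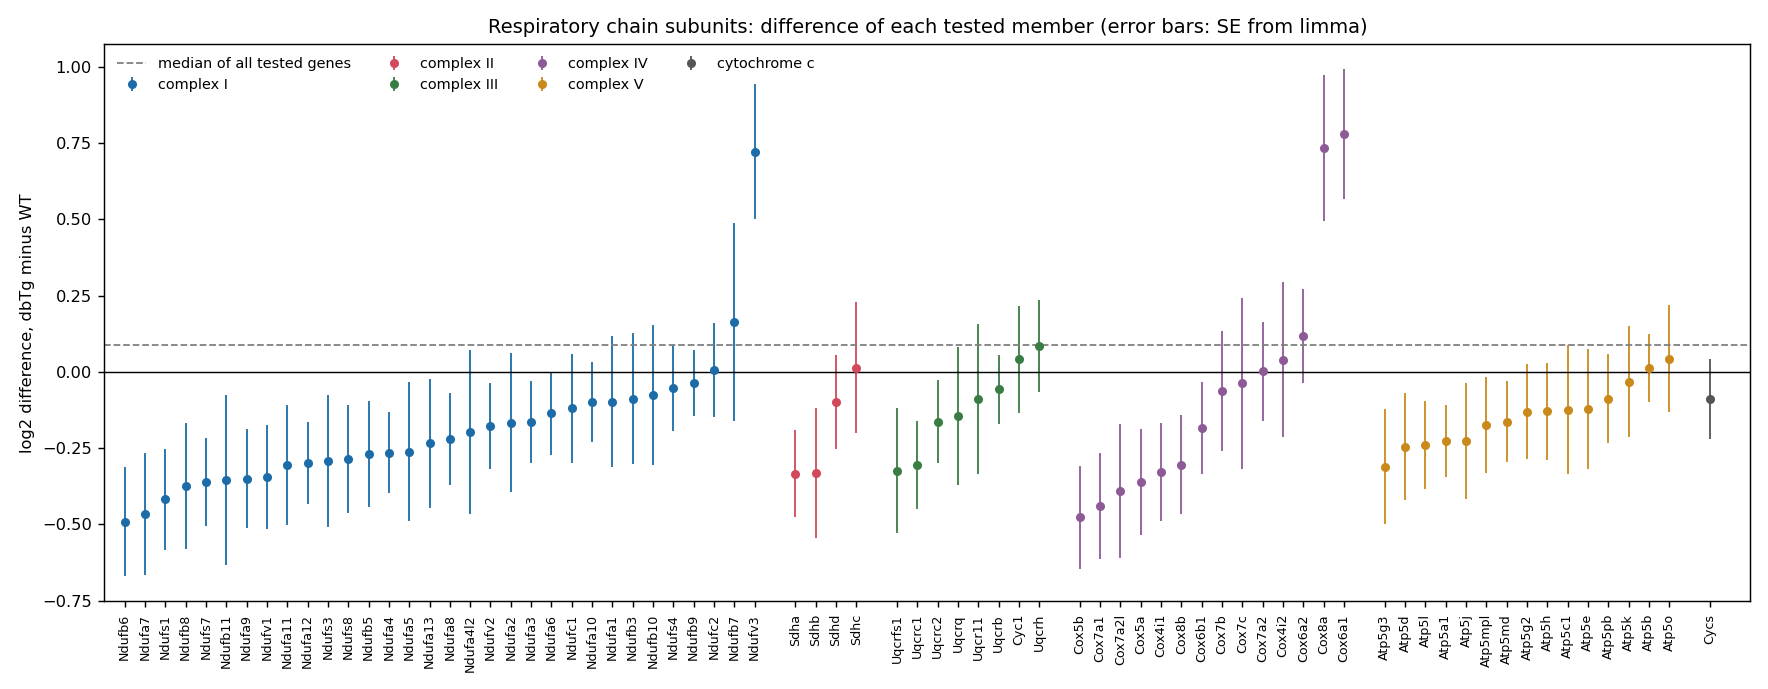
Log2 difference, dbTg minus WT, of each of the 74 tested subunit genes, grouped by complex and sorted within it; points are the differences and bars the SE from limma, with 2 arrays per group. The dashed line marks the median of all tested genes, 0.09. Of the 74 points 61 lie below 0, and Ndufv3, Cox8a and Cox6a1 stand apart at 0.72, 0.73 and 0.78.

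The size of the median rested on which WT mouse was taken. WT 2 read above WT 1 for 63 of the 74 members, with a median gap of 0.22, while dbTg 2 read above dbTg 1 for 33 of 74, with a median gap of -0.03. Over all tested genes the gap between the WT mice was -0.01. In the female pair (dbTg 2 minus WT 2) the median of the members was -0.31 with 61 of 74 below 0, and in the male pair (dbTg 1 minus WT 1) it was -0.08 with 51 below 0. Without WT replicate 1 the median was -0.28, and without WT replicate 2 it was -0.06. Both pairs were negative for 44 members and both positive for 5. Age and sex differ along with the replicate number in WT and cannot be told apart.

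**Figure D2:**
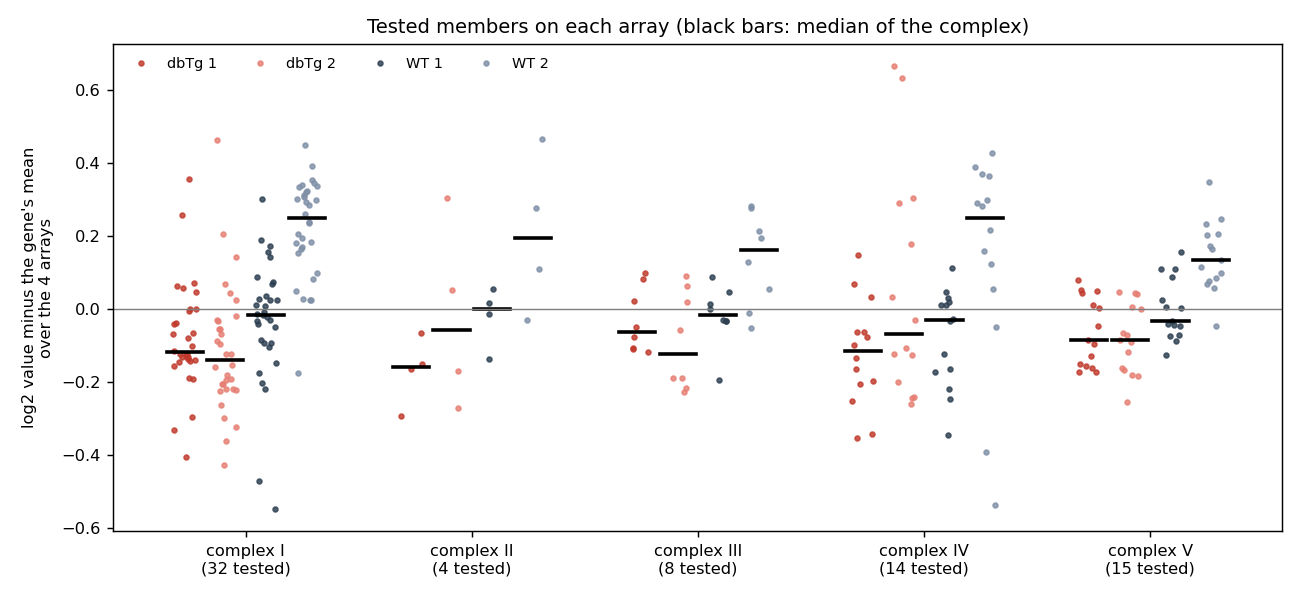
Log2 value of each tested subunit gene on each array minus that gene's mean over the 4 arrays, by complex (complex I 32 genes, II 4, III 8, IV 14, V 15); black bars are medians. WT 2 is the highest array by its median in every complex shown, and WT 1 lies closer to both dbTg arrays than to WT 2.

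Genes of slow and oxidative fibres split the arrays by replicate number. All 9 listed genes read higher in dbTg 2 than in dbTg 1 and higher in WT 2 than in WT 1, with median gaps of 1.39 in dbTg and 2.54 in WT. Myh7, the slow myosin heavy chain, read 1.62 and 5.33 in dbTg and 2.30 and 6.29 in WT. Of the 2 listed genes with the smallest p, Mb, the oxygen store myoglobin, had a difference of -0.30 (SE 0.24, limma adjusted p = 0.552). Atp2a2, the calcium pump of slow fibres, had 0.56 (SE 0.75, limma adjusted p = 0.747). The list had 0 of 9 called, and the groups overlapped for all 9. Of 9 fast fibre genes 0 were called, with a median of -0.01. Myh1, the myosin of an intermediate fast fibre type, had the smallest p at a difference of 0.51 (limma adjusted p = 0.191), and the troponin gene Tnni2 was next at -0.23 (adjusted p = 0.465). The part of fibre type in the subunit values was not tested.

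**Figure D3:**
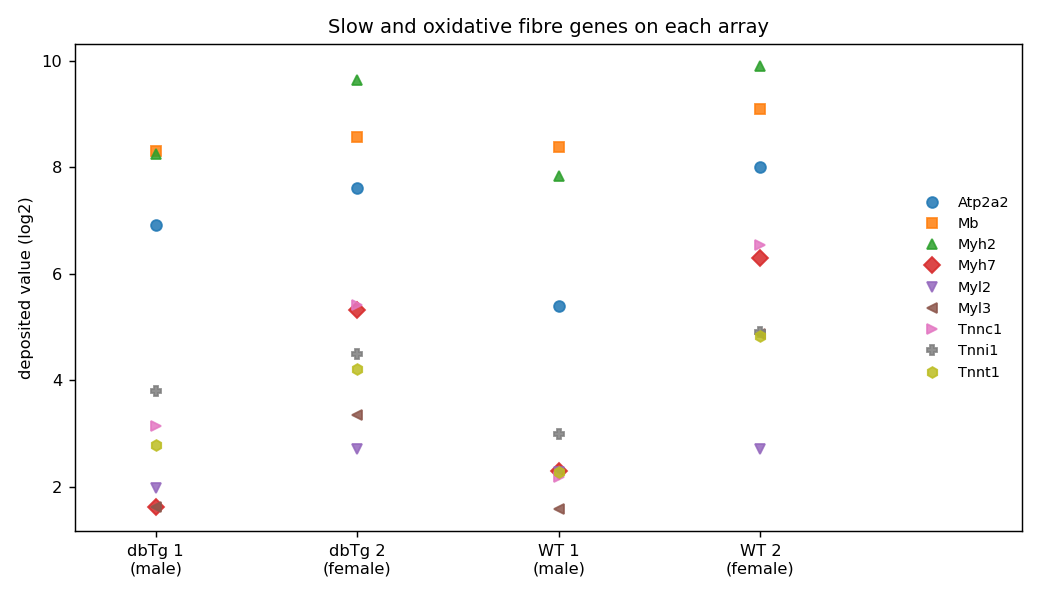
Deposited log2 values of 9 slow and oxidative fibre genes on the 4 arrays, with 1 symbol shape per gene, some of which overlie each other. In both groups replicate 2, the female, lies above replicate 1 for every gene shown, and the groups overlap.

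Complex I takes electrons from NADH. Its 32 tested members had a median difference of -0.23, and 29 were below 0, where 39.5% of all tested genes were. For 18 the groups did not overlap on the low side, against 16.3% of all tested genes. Some of these gaps were narrow, as for Ndufa3, at 8.53 in dbTg 1 and 8.56 in WT 1. The complexes were not compared with each other by a test. Without WT replicate 2 the complex I median was -0.09, and without WT replicate 1 it was -0.36. Of the core genes, Ndufs1, which encodes the largest iron-sulfur subunit, read 7.41 and 7.65 in dbTg and 7.81 and 8.08 in WT. Its 2 dbTg arrays lay below both WT arrays, with a difference of -0.42 (SE 0.17, limma unadjusted p = 0.0403, adjusted p = 0.243). Ndufs7, which carries the last iron-sulfur cluster before ubiquinone, read 7.56 and 7.78 in dbTg and 8.01 and 8.05 in WT, a difference of -0.36 (SE 0.15, adjusted p = 0.250). All 5 tested Ndufs genes were below 0.

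Among the accessory subunits of complex I, Ndufb6 of the membrane arm had the lowest difference of all tested members. It read 5.32 and 5.09 in dbTg and 5.64 and 5.75 in WT, without overlap, which gave a difference of -0.49 (SE 0.18, limma unadjusted p = 0.0294, adjusted p = 0.206) and a WT level 1.41-fold the dbTg level. All 14 tested Ndufa genes were below 0, from Ndufa7 at -0.47 to Ndufa1 at -0.10. Of 8 tested Ndufb genes 7 were, and Ndufb9, the brightest subunit of complex I at 10.08 and 10.05 in dbTg and 10.07 and 10.13 in WT, differed by -0.04 and overlapped. The other Ndufb gene, Ndufb7, had 0.16 and overlapped, at 4.21 and 3.66 in dbTg and 3.38 and 4.16 in WT. Ndufa4, named as a complex I gene but now placed in complex IV, read 8.74 and 8.70 in dbTg and 8.88 and 9.10 in WT. Its difference was -0.27 (SE 0.13, adjusted p = 0.345), with both dbTg arrays below both WT arrays. Its hypoxia-inducible relative Ndufa4l2 was dim and overlapped, at 2.27 and 2.88 in dbTg and 2.85 and 2.70 in WT (difference -0.20, SE 0.27). Ndufs5 lay under the filter, at 1.322 and 1.405 in dbTg and 1.190 and 1.424 in WT.

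Ndufv3, which encodes a small accessory subunit of the flavoprotein arm, lay on the other side. It read 4.36 and 4.56 in dbTg and 3.55 and 3.93 in WT. Both dbTg arrays lay above both WT arrays, with a difference of 0.72 (SE 0.22, limma unadjusted p = 0.0145, adjusted p = 0.149), a 1.65-fold higher reading. The other tested genes of that arm, Ndufv1 and Ndufv2, had differences of -0.35 and -0.18.

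Complex II oxidises succinate and is also an enzyme of the citric acid cycle. Its flavoprotein gene Sdha read 8.99 and 8.78 in dbTg and 9.11 and 9.33 in WT, without overlap (difference -0.33, SE 0.14, limma adjusted p = 0.275). The iron-sulfur gene Sdhb had -0.33 as well, also without overlap. It read 7.07 in both dbTg mice, 7.10 in WT 1 and 7.70 in WT 2. The membrane anchor genes Sdhd and Sdhc had -0.10 and 0.01. Sdhc overlapped, with 6.79 and 7.39 in dbTg and 7.10 and 7.05 in WT. The median of the 4 was -0.22, and -0.03 without WT replicate 2.

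Complex III passes electrons from ubiquinol to cytochrome c. Its 8 members had a median of -0.12, and 6 were below 0, where 39.5% of all tested genes were. Both dbTg arrays lay below both WT arrays for 3 of the 8, against 16.3% of all tested genes. They lay above for 1, against 33.7%. The Rieske iron-sulfur gene Uqcrfs1 was lowest, at 3.81 and 3.71 in dbTg and 3.97 and 4.201 in WT (difference -0.32, SE 0.20, limma adjusted p = 0.456). The core genes Uqcrc1 and Uqcrc2 had -0.30 and -0.16, and for all 3 of these the dbTg arrays lay below the WT arrays. The hinge gene Uqcrh was highest, at 6.35 and 6.39 in dbTg and 6.30 and 6.28 in WT, without overlap (0.08, SE 0.15), and Cyc1, the cytochrome c1 gene, had 0.04. Cycs, for cytochrome c itself, read 9.34 and 9.55 in dbTg and 9.48 and 9.60 in WT, with overlap (-0.09, SE 0.13). Of its 5 probe sets, all had negative differences, from -0.25 to -0.0028, and 2 of them held identical values.

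Complex IV hands electrons to oxygen. Of 14 tested members 9 were below 0 and 5 above, where 39.5% of all tested genes were below 0. The median was -0.12, or -0.05 without WT replicate 2 and -0.31 without WT replicate 1. Both dbTg arrays lay below both WT arrays for 7, against 16.3% of all tested genes, and above them for 2, against 33.7%. Cox5b, a subunit on the matrix side, read 6.70 and 6.93 in dbTg and 7.17 and 7.42 in WT, without overlap (difference -0.48, SE 0.17, limma unadjusted p = 0.0259, adjusted p = 0.194). A dimmer probe set of Cox5b, under the filter, differed by 0.03, and the mean of both probe sets by -0.22. Cox5a and Cox6b1 had -0.36 and -0.18, both without overlap.

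Several complex IV subunits have paired isoform genes. Cox6a1, the form of most tissues, read 6.81 and 7.29 in dbTg and 6.41 and 6.13 in WT. Both dbTg arrays lay above both WT arrays, with a difference of 0.78 (SE 0.21, limma unadjusted p = 0.00837, adjusted p = 0.116), a 1.72-fold higher reading. Cox6a2, the muscle form, overlapped at 8.14 and 8.38 in dbTg and 8.03 and 8.25 in WT (0.12, SE 0.16). Cox8a, again the form of most tissues, read 4.92 and 5.51 in dbTg and 4.50 and 4.46 in WT, without overlap (0.73, SE 0.24, unadjusted p = 0.0186, adjusted p = 0.166). Its muscle partner Cox8b lay below WT on both arrays, at 7.52 and 7.34 in dbTg and 7.59 and 7.87 in WT (-0.30, SE 0.16, adjusted p = 0.370).

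The forms of subunit 7a also split, in another manner. Cox7a1, the muscle form, read 7.59 and 7.54 in dbTg and 7.79 and 8.21 in WT, without overlap (difference -0.44, SE 0.17, limma unadjusted p = 0.0411, adjusted p = 0.245), and -0.23 without WT replicate 2. Cox7a2, the form of most tissues, overlapped at 5.84 and 5.78 in dbTg and 5.85 and 5.76 in WT (0.002, SE 0.16). Cox7a2l, a relative that links complexes III and IV into supercomplexes, had -0.39 (SE 0.22), at 3.66 and 3.53 in dbTg and 3.81 and 4.16 in WT. Cox4i1, the common form of subunit 4, read 6.86 and 6.94 in dbTg and 7.09 and 7.36 in WT (-0.33, SE 0.16, adjusted p = 0.332), and its lung form Cox4i2 was dim and overlapped at 1.81 and 2.35 in dbTg and 1.90 and 2.18 in WT. The 3 forms known from testis (Cox6b2, Cox7b2 and Cox8c) lay under the filter and were not tested, with readings between 0.55 and 1.60 over all 6 members under it.

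As a change within each array, the log2 ratio of Cox8a to Cox8b was 1.04 higher in dbTg (0.49 for males and 1.59 for females). The ratio of Cox6a1 to Cox6a2 was 0.66 higher (0.28 and 1.04), and that of Cox7a2 to Cox7a1 was 0.44 higher (0.19 and 0.69). In each of these 3 families the dbTg arrays lay above the WT arrays. An exact two-sided permutation test gave p = 0.333 for each, the smallest that 2 arrays against 2 can give, and the p adjusted by Benjamini-Hochberg over the 6 such ratios computed was 0.5. The ratio of Cox4i2 to Cox4i1 was 0.37 higher, also without overlap and with the same p. Those of Cox7a2l to Cox7a1 (0.05) and Ndufa4l2 to Ndufa4 (0.07) overlapped. How often ratios of other gene pairs separate the groups was not computed.

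**Figure D4:**
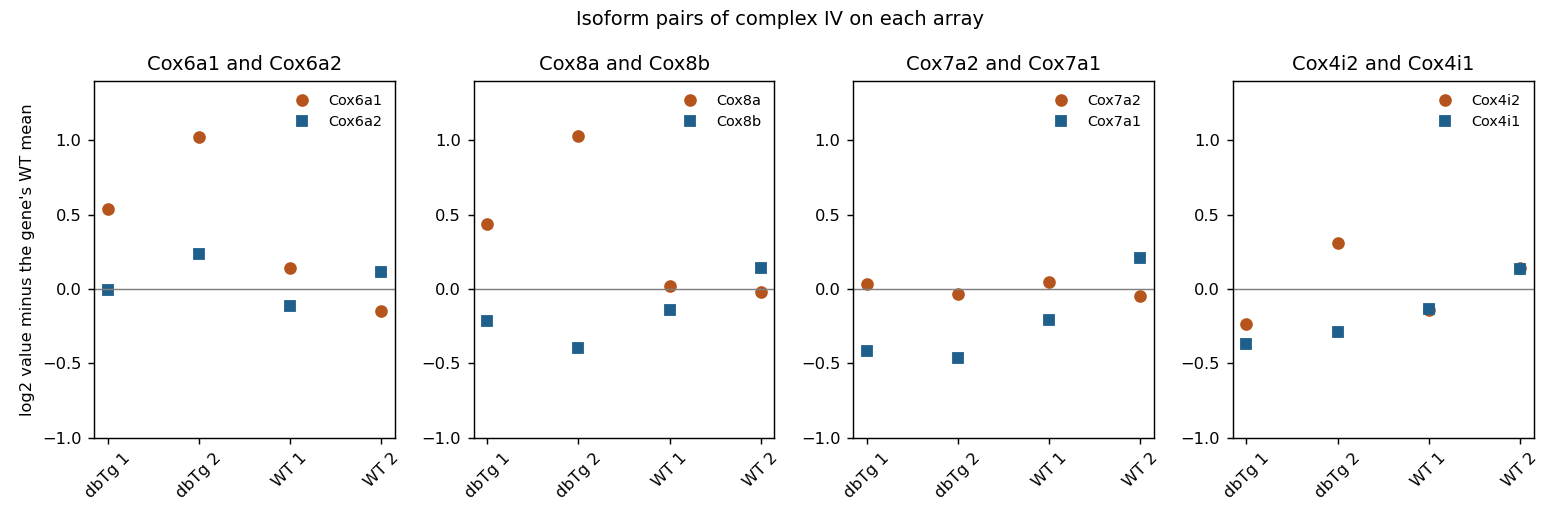
Log2 value of 4 isoform pairs of complex IV on each array minus the same gene's WT mean; circles are Cox6a1, Cox8a, Cox7a2 and Cox4i2, squares Cox6a2, Cox8b, Cox7a1 and Cox4i1. Cox6a1 and Cox8a lie above WT on both dbTg arrays, Cox8b, Cox7a1 and Cox4i1 lie below it, and Cox6a2 overlaps.

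Markers of other cells differed between the same mice. Of 12 tested macrophage and leukocyte markers 8 rose in dbTg and 0 fell, against 2.01% and 0.203% of all tested genes. The median difference of the list was 1.88, and the groups overlapped for Cd14 (0.33) and S100a9 (-0.06). The list's mean level was 4.78 and 4.55 in dbTg against 2.85 and 2.57 in WT. Ctss, a lysosomal protease (difference 4.23), Cd68, a macrophage glycoprotein (3.76), and Ptprc, the common leukocyte antigen (2.79), rose (limma adjusted p = 0.000494, 0.00335 and 0.00444), and the T cell gene Cd3e lay under the filter. Without either dbTg array Ctss was still called (adjusted p = 0.0421 and 0.0487), and Cd68 and Ptprc were not (adjusted p of 0.0795 to 0.0909). Adipocyte markers had 3 of 7 risen (Adipoq 1.47, Lep 1.31 and Scd1 1.23), against 2.01% of all tested genes. The mean levels of the 7 were 4.94 and 4.84 in dbTg against 3.69 and 3.80 in WT. Ucp1 of the same list lay under the filter, at 1.24 and 1.21 in dbTg and 1.41 and 1.47 in WT. All 3 calls were lost with the replicate block (limma adjusted p of 0.0793 to 0.100), after quantile normalization (0.0668 to 0.0800) and without either dbTg array (0.1535 to 0.366). Without a filter Lep and Scd1 were lost (0.0636 and 0.0692), and without an intensity trend Scd1 was (0.0617). Fibroblast markers had 0 of 7 called and a median of 0.68, with the smallest p for Dpt (0.74) and Col3a1 (1.24), at mean levels of 6.74 and 6.76 in dbTg against 6.07 and 5.92 in WT. Dpt was called with the 60th percentile filter, with median centring and without WT replicate 1 (adjusted p = 0.0426, 0.0486 and 0.0398). Col3a1 was called without WT replicate 1 and without WT replicate 2 (adjusted p = 0.00545 and 0.0409). The part of these cells in the isoform values was not tested.

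All 10 tested endothelial markers had negative differences, where 39.5% of all tested genes had, with a median of -0.50 and 0 called. Their mean level was 3.84 and 3.99 in dbTg against 4.33 and 4.61 in WT, and Cdh5 (-0.85) and Kdr (-0.85) had the smallest p. Smooth muscle and pericyte markers had 0 of 7 called and a median of -0.22, with Abcc9 at -0.51 and Acta2 at 0.91, and mean levels of 4.87 and 5.08 in dbTg against 5.13 and 4.99 in WT. With WT replicate 2 left out Acta2 had 0.55, and with WT replicate 1 left out it had 1.28 and passed (limma adjusted p = 0.0210). Nerve and Schwann cell markers had 0 of 3 called and a median of 0.71, with Gldn at 1.38, Pmp22 at 0.71 and S100b at -0.19, and mean levels of 2.58 and 3.08 in dbTg against 1.94 and 2.46 in WT. Sox10 lay under the filter. Gldn had 0.86 without WT replicate 1, and 1.90 with WT replicate 2 left out, where it passed (limma adjusted p = 0.00959). Pmp22 had 0.32 without dbTg replicate 2. Their part in the subunit values was not tested.

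Complex V makes ATP. Of its 15 tested members 13 were below 0, where 39.5% of all tested genes were. The median was -0.13 (-0.04 without WT replicate 2), with a range from -0.31 to 0.04. Both dbTg arrays lay below both WT arrays for 7, against 16.3% of all tested genes, and above them for 0, against 33.7%. The c-ring gene Atp5g3 was lowest, at 6.004 and 5.948 in dbTg and 6.092 and 6.481 in WT (difference -0.31, SE 0.19, limma adjusted p = 0.433). Of the catalytic head, the alpha subunit gene Atp5a1 read 9.11 and 9.20 in dbTg and 9.38 in both WT mice (-0.23, SE 0.12), without overlap. The beta subunit gene Atp5b, the brightest member of all, overlapped at 10.31 and 10.30 in dbTg and 10.23 and 10.36 in WT (0.01, SE 0.11). The membrane part gene Atp5l had -0.24, without overlap, and the stalk gene Atp5pb -0.09. Atp5o, another stalk gene, had the highest difference of the tested members at 0.04. It lay close to the filter, at 1.67 and 1.71 in dbTg and 1.67 and 1.62 in WT. Under the filter lay Atp5g1, at 0.95 and 0.96 in dbTg and 1.22 and 1.21 in WT, and Atp5j2, at 1.56 and 1.44 in dbTg and 0.92 and 1.29 in WT.

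Subunits encoded in mitochondrial DNA had small differences of mostly positive sign. Of 10 such genes on probe sets of their own, 8 had positive and 2 negative differences. Their median was 0.03, with a range from -0.06 to 0.19. Over all tested genes the median was 0.09, with 39.5% below 0. The 10 genes are very bright, at a median percentile of 99.97 of all named genes. By limma 0 were called, and 0 had an unadjusted p under 0.05. COX1, the catalytic subunit of complex IV, read 11.20 and 11.23 in dbTg and 11.06 and 11.15 in WT, and ND4L of complex I differed by 0.19 (limma adjusted p = 0.439).

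Genes that assemble the complexes, and those that set their amount, were mixed. Of 48 tested assembly factors, 0 were called, with 25 positive and 23 negative differences and a median of 0.01. Cox20, a chaperone of complex IV, had the smallest p at 0.55 (limma adjusted p = 0.159), followed by Bcs1l, which inserts the Rieske protein into complex III, at -0.73 (adjusted p = 0.190). Of 21 tested regulators of mitochondrial biogenesis 0 were called, with a median of -0.02. Tfb2m, a transcription factor of mitochondrial DNA, read 5.56 and 5.55 in dbTg and 6.37 and 6.25 in WT (-0.75, SE 0.16, adjusted p = 0.0698), and it was called only without WT replicate 2 (adjusted p = 0.0499). Perm1, a muscle regulator of oxidative genes, had -0.74 (adjusted p = 0.190) and was called only without WT replicate 1 (-1.10, adjusted p = 0.0228), against -0.39 without WT replicate 2. Ppargc1a, the coactivator known to drive these programmes, had 0.12 (SE 0.19, adjusted p = 0.791).

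Of 26 tested genes of mitochondrial import, membranes and chaperones, 1 rose and 1 fell, against 2.01% and 0.203% of all tested genes. Their differences were negative for 16 and positive for 10, with a median of -0.10. Slc25a5, the adenine nucleotide carrier of most tissues, rose 2.40-fold, at 7.15 and 7.31 in dbTg and 5.69 and 6.24 in WT (limma adjusted p = 0.0429). Its muscle counterpart Slc25a4 had -0.19 (adjusted p = 0.429), at 9.65 and 9.59 in dbTg and 9.82 and 9.80 in WT. Mfn2, which fuses outer mitochondrial membranes, fell by 0.85 on the log2 scale (limma adjusted p = 0.0437). It read 6.51 and 6.42 in dbTg against 7.27 and 7.37 in WT. Its relative Mfn1 had -0.95, without overlap, and was not called (limma adjusted p = 0.0666). Both calls were lost without dbTg replicate 1 (adjusted p = 0.228 and 0.240) and without dbTg replicate 2 (0.354 and 0.360). They were also lost after quantile normalization, without a filter and without an intensity trend (adjusted p of 0.0563 to 0.0787 over both genes). Of the uncoupling carriers and the ATP synthase inhibitor, Ucp3 had -0.63 and Atpif1 0.57 (adjusted p = 0.161 and 0.133), and the groups did not overlap for either. Ucp1 lay under the filter and was not tested. The 4 genes of supercomplexes and cardiolipin had 0 called, with Stoml2 at -0.21, Higd2a at -0.15, Higd1a at 0.02 and Taz at 0.16. Averaged over its probe sets, Stoml2 had -0.0021.

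**Figure D5:**
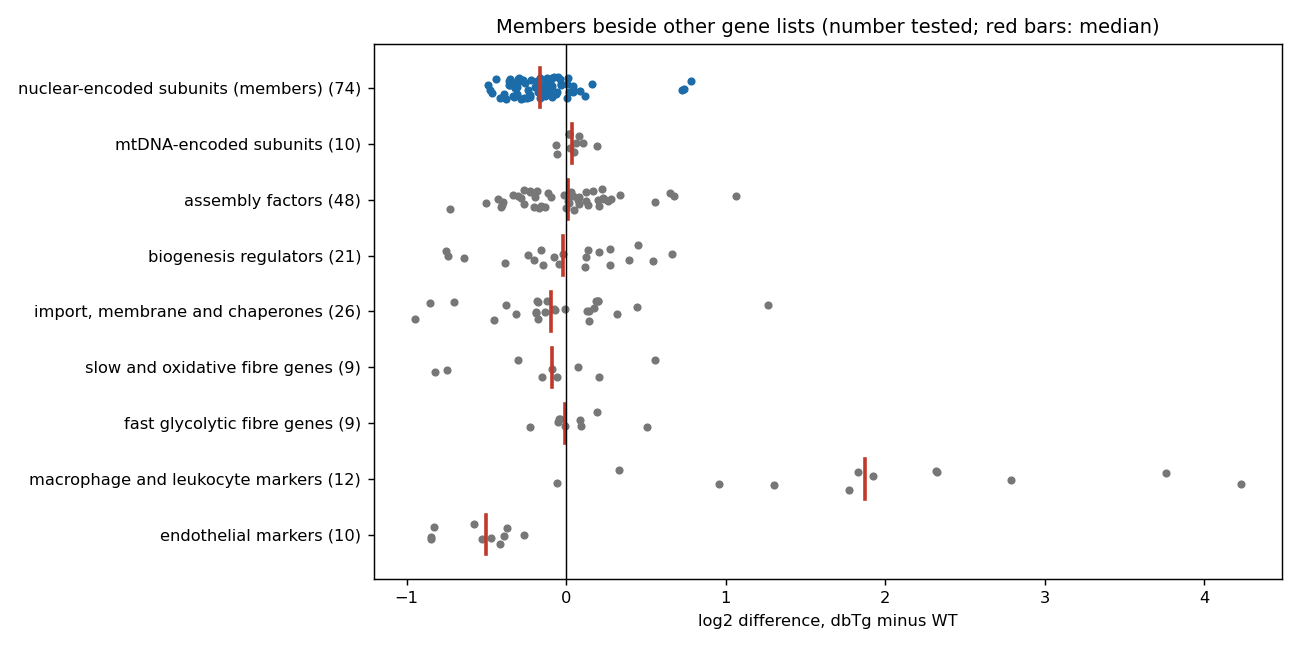
Log2 difference, dbTg minus WT, of the tested genes of 9 lists, with the number tested in brackets; each point is a gene and red bars are medians. The 74 nuclear-encoded subunits have a median of -0.17 and the 10 subunits of mitochondrial DNA 0.03; leukocyte markers lie highest at 1.88 and endothelial markers lowest at -0.50.

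Promoter sequence is shown for 7 members: those with the highest positive differences, Cox5b and Ndufb6, and the muscle forms Cox7a1 and Cox8b. Cox5b and Ndufb6 had the lowest differences among the tested members of complexes IV and I. Windows from 250 bases before to 50 bases after the start, from RefSeq on GRCm38.p6, were matched to 65 of the 80 members. The 200 bases before the start are printed 5′ to 3′ on the gene's strand, with matches to GCGCATG (part of the NRF1 site) or CCGGAAG (core of the GABP and ETS site) on either strand in capitals. NRF1 and GABP are known regulators of respiratory chain genes. The genes with positive differences are Cox6a1 (chr5:115348959-115349158, minus strand), Cox8a (chr19:7217617-7217816, minus) and Ndufv3 (chr17:31519915-31520114, plus).
Cox6a1: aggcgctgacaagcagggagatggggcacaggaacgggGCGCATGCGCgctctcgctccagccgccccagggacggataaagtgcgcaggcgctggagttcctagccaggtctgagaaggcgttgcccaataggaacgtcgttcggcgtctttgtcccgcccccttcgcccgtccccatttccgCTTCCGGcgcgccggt
Cox8a: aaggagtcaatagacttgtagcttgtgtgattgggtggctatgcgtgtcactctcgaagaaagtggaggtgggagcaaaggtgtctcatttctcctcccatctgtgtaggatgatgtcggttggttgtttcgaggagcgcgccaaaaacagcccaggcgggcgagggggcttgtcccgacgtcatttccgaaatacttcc
Ndufv3: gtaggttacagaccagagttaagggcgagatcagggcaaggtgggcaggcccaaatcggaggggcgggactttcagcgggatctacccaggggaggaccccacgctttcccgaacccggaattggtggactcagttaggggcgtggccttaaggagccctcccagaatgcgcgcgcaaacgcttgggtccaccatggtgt

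The genes with negative differences are Cox5b (chr1:36691287-36691486, plus), Ndufb6 (chr4:40279422-40279621, minus) and the muscle forms Cox7a1 (chr7:30183971-30184170, plus) and Cox8b (chr7:140900447-140900646, minus).
Cox5b: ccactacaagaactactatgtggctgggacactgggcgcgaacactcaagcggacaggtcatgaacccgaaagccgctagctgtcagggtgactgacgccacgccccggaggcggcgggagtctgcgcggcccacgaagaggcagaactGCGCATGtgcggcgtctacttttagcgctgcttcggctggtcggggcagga
Ndufb6: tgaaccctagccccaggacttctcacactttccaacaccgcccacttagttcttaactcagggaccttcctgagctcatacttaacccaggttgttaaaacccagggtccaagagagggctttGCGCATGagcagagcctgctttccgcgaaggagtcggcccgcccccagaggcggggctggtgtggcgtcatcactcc
Cox7a1: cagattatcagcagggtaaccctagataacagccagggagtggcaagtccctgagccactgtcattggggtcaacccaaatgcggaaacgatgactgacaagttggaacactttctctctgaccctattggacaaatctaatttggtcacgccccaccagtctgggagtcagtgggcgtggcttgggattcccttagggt
Cox8b: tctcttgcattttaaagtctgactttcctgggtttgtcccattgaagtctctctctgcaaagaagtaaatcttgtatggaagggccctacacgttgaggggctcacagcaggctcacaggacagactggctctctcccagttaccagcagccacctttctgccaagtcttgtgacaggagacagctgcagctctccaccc

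The Cox6a1 promoter held overlapping matches to GCGCATG on both strands, starting 162 and 159 bases before the start, and a reverse match to CCGGAAG at 16. Cox8a held a reverse CCGGAAG match that begins 5 bases before the start and runs past the printed end, and another that lies after the start. Cox5b and Ndufb6 held GCGCATG at 51 and 77 bases before the start, and Ndufb6 a reverse CCGGAAG at 232, outside the stretch shown. In these windows the letters searched, AAGGTCA (a site of the ERR receptors) included, were not in Ndufv3, Cox7a1 or Cox8b. Over the members with a window, 14 of 65 held GCGCATG (21.5%), 17 held CCGGAAG (26.2%) and 6 held AAGGTCA (9.23%), against 4.41%, 9.93% and 5.38% of all 27025 genes with a window. Base composition was not adjusted for, and a match is not evidence of binding.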

How the data were processed

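Total RNA of quadriceps was measured on Affymetrix arrays, 1 per mouse. The values the authors deposited are log2 expression per probe set. The submitters' processing notes name Affymetrix Expression Console and RMA, and the labels the RMA-sketch variant. Version and annotation build: not given in the sources used here. RMA as a method subtracts background, aligns the arrays by quantiles and summarises probes. Array medians over all 41345 probe sets were 1.55 and 1.57 in dbTg and 1.60 and 1.58 in WT, with maxima of 11.99 and 11.92 in dbTg and 12.31 and 12.36 in WT. Upper quartiles were 2.99 and 2.98 in dbTg and 2.80 and 2.78 in WT, so the arrays did not share a distribution. The median difference of all tested genes was 0.09 with these values and -0.0015 after quantile normalization. That of the members was -0.17 and -0.225. No detection call accompanies the values, and the number of arrays limits their precision.

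Of the probe sets, 23521 had exactly 1 symbol, of which 23328 matched RefSeq (GRCm38.p6) by Entrez identifier. R 4.3.3 and its package limma 3.58.1 gave the group test (a linear model per gene, then eBayes with a trend in intensity, on 2 residual degrees of freedom with 4.76 added from all genes), two-sided, adjusted by Benjamini-Hochberg over 13308 genes. SDs and SEs are over 2 arrays a group, SEs moderated. In simulated data, 0.4% of genes lowered by 0.5 on the log2 scale, 10.8% of those lowered by 1 and 89.8% of those lowered by 2 were called in this comparison (20 rounds, 200 of 13308 genes changed).

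Members, lists and tests were chosen with earlier results of these data known. Values were printed for members with an unadjusted p under 0.05, the lowest and highest tested members of each complex and fixed isoform families. Of each other list, up to 3 called genes or the 2 with the smallest p were named. Others, among them Myh7, Ppargc1a, Slc25a4, Mfn1, S100b, Taz, Higd1a, Ndufa3 and Ndufb9, were named after their values were seen. Alternatives were each array left out, a replicate block, median centring, quantile normalization, no filter or the 60th percentile, averaging probe sets of 1 gene, and eBayes without a trend or robust.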

Additional observations from a re-analysis of the deposited data

Results flagged for a closer look

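The dbTg minus WT difference had opposite signs in males and females for several genes named above, in a comparison of 1 mouse against 1 whose difference was not tested. It was widest apart for Ndufb7 among the members listed here, at 0.83 for males and -0.50 for females. In Sdhc it was -0.31 for males and 0.34 for females, and in Ndufa4l2 -0.58 and 0.18. It was -0.089 and 0.17 for Cox4i2, -0.014 and 0.017 for Cox7a2, -0.35 and 0.055 for Higd2a, and 1.52 and -0.41 for Atp2a2. It was 0.17 and -0.41 for Atp5e, 0.12 and -0.25 for Cox7b, 0.081 and -0.27 for Ndufa1, 0.0087 and -0.081 for Ndufb9, and 0.081 and -0.057 for Atp5b. It was -0.019 and 0.10 for Cyc1, 0.47 and -0.15 for Taz and 0.047 and -0.062 for Myh4, and, under the filter, 0.28 and -0.26 for Cox6b2 and 0.13 and -0.019 for Ndufs5. Groups of 2 arrays are too small to test whether single arrays stand apart.

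A probe set that the comparisons left out because Ndufb4, Ndufb4b and Ndufb4c share it read above WT on both dbTg arrays, at 5.296 and 5.002 in dbTg and 4.984 and 4.954 in WT, a difference of 0.18.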

How the results depend on the processing

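Members called stayed at 0 under all 12 alternatives. With all 4 arrays kept, the smallest adjusted p by limma was 0.0964 (Cox6a1, 60th percentile filter). Some alternatives called few genes of any kind, so 0 members there says little. Over all genes 294 were called, against 127 after quantile normalization and 172 without a filter. Leaving out an array gave 4 (without either dbTg array) to 766 (without WT replicate 1), and 735 without WT replicate 2; the lone array left is assumed to vary like the other group. Higher calls made up 90.8% of calls, 79.6% without WT replicate 1 and 80.7% without WT replicate 2. The median of all tested genes was -0.0015 after quantile normalization.

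The member median ran from -0.28 to -0.062 over the arrays left out, and that of complex III from -0.24 to -0.039, with -0.2257 after quantile normalization. Quantile normalization turned the sign of Cox4i2 (-0.028), Cox7a2 (-0.060) and Sdhc (-0.013). Leaving out arrays gave -0.23 to 0.31 for Cox4i2, -0.0029 to 0.24 for Cox6a2, -0.046 to 0.049 for Cox7a2, -0.50 to 0.11 for Ndufa4l2 and -0.28 to 0.31 for Sdhc. It gave -0.75 to 1.86 for Atp2a2, -0.36 to 0.060 for Higd2a, -0.66 to 0.047 for Mb, -2.82 to 1.17 for Myh7 and -0.083 to 0.33 for Ppargc1a. The cause was not tested.

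With the replicate number as a block, 65 genes were called and 0 members, and Slc25a5, Mfn2 (adjusted p = 0.0718 and 0.0971), Adipoq, Lep and Scd1 were not. Deviations of same-numbered arrays correlated at r = 0.0486 over 13308 genes, and same-numbered mice share sex. The block thus also stands for sex, which the main fit did not include. No label gives same-numbered mice a shared litter, batch or day, and the block was kept as an alternative.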

Other observations

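The symbols left out as members because they share probe sets with other genes had small differences. Cox6c, on a probe set shared with a predicted gene, read 8.78 and 8.90 in dbTg and 8.82 and 9.21 in WT (difference -0.17). Ndufs6, shared with Ndufs6b, read 8.35 and 7.98 in dbTg and 8.11 and 8.37 in WT (-0.08). Uqcr10 differed by -0.10 and Ndufb2 by -0.03, and the arrays of the groups overlapped for all of these. No test was run on them. Dimmer probe sets of members with several also differed from the brighter ones in places: a second probe set of Atp5e had 0.52, at 3.41 and 3.04 in dbTg and 2.43 and 2.98 in WT, where the brighter had -0.12. A second probe set of Cox7b had 0.37, at 2.04 and 2.64 in dbTg and 2.10 and 1.83 in WT, where the brighter had -0.06.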
